A study of Rattus norvegicus with 18 samples.

Results

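Psmb8, Psmb9, Tap1, Tap2, Tapbp and B2m are 6 genes that make and load the peptides shown by major histocompatibility complex (MHC) class I molecules. They were followed in the rat hippocampus after pilocarpine-induced status epilepticus (SE). The 6 genes were chosen by name, and 8 probes of the array carry one of these names. Psmb8, Psmb9, Tapbp and B2m have 1 probe each, while Tap1 and Tap2 have 2 each. They are 6 of the 12344 genes that could be named on the array, and all 8 probes passed the filter for testing.

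The tissue was the whole hippocampus of male adult Wistar rats, with 1 CodeLink array per rat and 18 arrays in all. D3 (n = 5) and D7 (n = 5) were taken 3 and 7 days post-SE, and Chronic (n = 5) came within hours of the first spontaneous seizure. These 15 rats had been given scopolamine methylnitrate and then a single dose of pilocarpine, a muscarinic agonist, and their SE was stopped with diazepam. The Control group (n = 3) holds saline-treated rats, 1 each for the 3-day, 7-day and immediate times, and received none of these drugs. Further saline rats described in the methods were not analysed here. Only rats that reached SE and lived were kept by the study, so D3, D7 and Chronic are groups of survivors. The values are normalized intensities: brightness of the spot less that of its surroundings, scaled by a constant for the array. Each spot is flagged G (good) or L (low, near background). Intensities of different probes are not on a common scale, so no probe is set against another. A sum over marker genes is led by its brightest probes and is compared only with the same sum in other rats. Each rat gave 1 array, so the p-values measure the spread between rats.

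Over the 18 arrays, 66.0% to 76.0% of the gene spots were flagged G, and the group medians lay between 67.3% (Control) and 70.5% (Chronic). None of the 5 measured marker genes of hippocampal neurons had all its spots flagged L in any group, and their summed intensity was 20.5 to 29.2 at D3, 13.2 to 42.9 at D7, and in Chronic 24.3 to 38.6, against 57.5 to 59.0 in Control. Fibcd1, a marker of CA1, was called lower at all 3 times and Calb1, a marker of the dentate gyrus, at D3 and in Chronic. Prox1 passed the test as lower at D3 (-0.76 on the log2 scale, limma adjusted p = 0.00413), under 2-fold. In Chronic Prox1 stood at 0.51 (adjusted p = 0.0561), and it was called higher there than at D3. Neurod2 and Zbtb20 passed at no time. In whole tissue, more cells of a type and more RNA per cell cannot be told apart.

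MHC class I molecules show the peptides of a cell's own proteins to CD8 T cells. The peptides are cut by the proteasome, whose catalytic subunits are exchanged for inducible ones (Psmb8, Psmb9 and Psmb10) to form the immunoproteasome. Tap1 and Tap2 form the transporter that carries peptides into the endoplasmic reticulum, tapasin (Tapbp) holds the empty class I molecule next to the transporter, and beta-2 microglobulin (B2m) is the light chain of the molecule. Interferons are known to induce these genes in many cell types, and healthy neurons carry little class I on their surface.

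Tap2, Psmb8, Tap1 and Psmb9 are neighbours on rat chromosome 20, with 2 genes, Psmb8 and Tap1, between Tap2 and Psmb9. Tap1 and Psmb9 are read in opposite directions from start sites 456 bases apart. Tapbp lies on the same chromosome, 30 genes away from Psmb9, and B2m on chromosome 3. The promoter windows below run from 250 bases before to 50 bases after each annotated start site in RefSeq GRCr8, where all 6 genes matched by symbol. They are shown for the 3 genes that were called higher at every time (Psmb8, Psmb9 and Tap1) and for Tapbp, which was called at none. Capitals mark matches, on either strand, to an interferon regulatory factor (IRF) element, which is a pair of GAAA runs with 2 bases of any kind between them, and to a kappaB site, searched as GGGACTTTC. The windows of Tap1 and Psmb9 overlap in part.
Psmb8, chr20:4656982-4657281, minus strand: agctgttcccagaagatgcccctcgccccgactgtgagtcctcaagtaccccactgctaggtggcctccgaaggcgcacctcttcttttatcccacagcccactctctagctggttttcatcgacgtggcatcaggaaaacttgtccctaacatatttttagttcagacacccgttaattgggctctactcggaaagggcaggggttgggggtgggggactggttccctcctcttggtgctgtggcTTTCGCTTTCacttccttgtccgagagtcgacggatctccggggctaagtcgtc
Tap1, chr20:4668494-4668793, minus strand: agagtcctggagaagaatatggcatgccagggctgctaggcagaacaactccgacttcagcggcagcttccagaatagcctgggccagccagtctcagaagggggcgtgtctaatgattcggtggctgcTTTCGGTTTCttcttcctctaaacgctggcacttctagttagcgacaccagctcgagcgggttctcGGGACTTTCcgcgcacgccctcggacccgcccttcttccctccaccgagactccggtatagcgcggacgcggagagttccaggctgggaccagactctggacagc
Psmb9, chr20:4668750-4669049, plus strand: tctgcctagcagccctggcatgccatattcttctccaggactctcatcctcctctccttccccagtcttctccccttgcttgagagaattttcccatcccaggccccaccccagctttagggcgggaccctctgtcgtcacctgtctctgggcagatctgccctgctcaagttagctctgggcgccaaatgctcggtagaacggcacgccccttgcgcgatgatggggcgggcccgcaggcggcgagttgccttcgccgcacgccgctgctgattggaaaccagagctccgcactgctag
Tapbp, chr20:4967828-4968127, minus strand: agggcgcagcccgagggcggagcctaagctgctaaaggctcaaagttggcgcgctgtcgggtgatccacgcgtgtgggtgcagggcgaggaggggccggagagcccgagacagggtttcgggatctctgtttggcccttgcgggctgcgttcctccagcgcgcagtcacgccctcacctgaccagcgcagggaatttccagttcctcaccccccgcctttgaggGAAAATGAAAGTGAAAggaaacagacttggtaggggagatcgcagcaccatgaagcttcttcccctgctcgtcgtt

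The IRF element was found in 5 of the 6 windows and in 3.92% of all 33469 promoter windows of this length. It lay across the start site of Psmb8 (bases -4 to 6, on the opposite strand), at -121 to -112 in Tap1 on the opposite strand, at -41 to -32 in Tap2 and at -150 to -141 in B2m. In Tapbp, 2 matches overlapped, at -26 to -17 and at -20 to -11. No match lay in the Psmb9 window. The kappaB site was found in Tap1 (-55 to -47) and in B2m (-136 to -128, opposite strand) and in 0.326% of all windows. Both Tap1 matches lie between the start sites of Tap1 and Psmb9, farther upstream of Psmb9 than its window reaches. These motifs were chosen with the sequences in view, and a match is a run of letters, not a measured site.

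**Figure D1:**
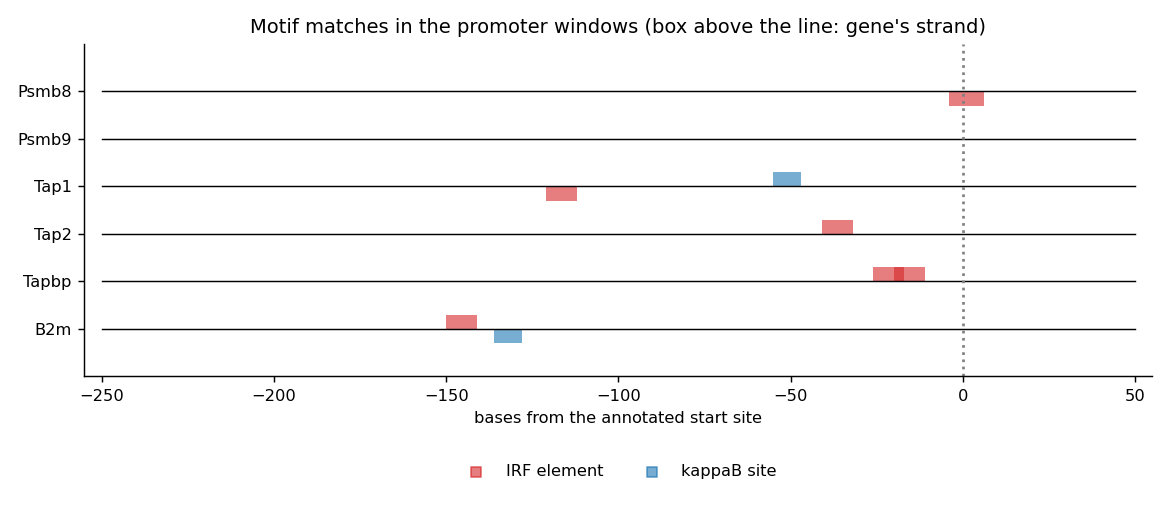
Positions of the motif matches in the promoter windows of the 6 genes, in bases from the annotated start site (dotted line); boxes above a line lie on the strand of the gene and boxes below it on the opposite strand. The IRF element (red) is in every window but that of Psmb9, and the kappaB site (blue) is in Tap1 and B2m. The Tap1 matches also lie upstream of Psmb9, beyond the end of its window.

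Psmb8, Psmb9 and Tap1 were over-expressed at all 3 times after SE, by 2.24-fold to 3.26-fold over Control. Tap2 was called higher at D7, B2m rose by less than 2-fold at D7 and in Chronic, and Tapbp passed the test at no time. A call needed a limma adjusted p under 0.05 together with 2-fold or more. By that rule 3 of 6 were called higher at D3, where 5.09% of the 12331 genes tested were. At D7, 4 of 6 were called higher, beside 3.8% of all genes, and in Chronic 3 of 6, beside 2.87%. None was called lower, beside 0.973%, 0.487% and 0.673% of all genes. The median log2 fold change of the 6 genes was 1.08 (D3), 1.39 (D7) and 1.04 (Chronic), whereas the median of all genes was -0.10, -0.12 and -0.12. The 3 comparisons share the Control arrays. When each pilocarpine group was set against the 1 Control array of its own time, with that array assumed to vary like the other groups, none of the 6 genes was called, beside 4.43% (D3), 2.11% (D7) and 0.28% (Chronic) of genes called in either direction. In that fit 7 of the 18 log2 fold changes were larger than with the 3 Control arrays and 11 were smaller. Psmb9 at D3 had 1.66 ± 0.51 (SE; adjusted p = 0.0677) and Tap1 at D3 1.79 ± 0.51 (adjusted p = 0.0512), both larger. Tap1 in Chronic had 0.78 ± 0.51 (adjusted p = 0.545), Tap2 at D3 0.53 ± 0.47 (adjusted p = 0.556) and B2m at D7 0.41 ± 0.29 (adjusted p = 0.451), all smaller.

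**Figure D2:**
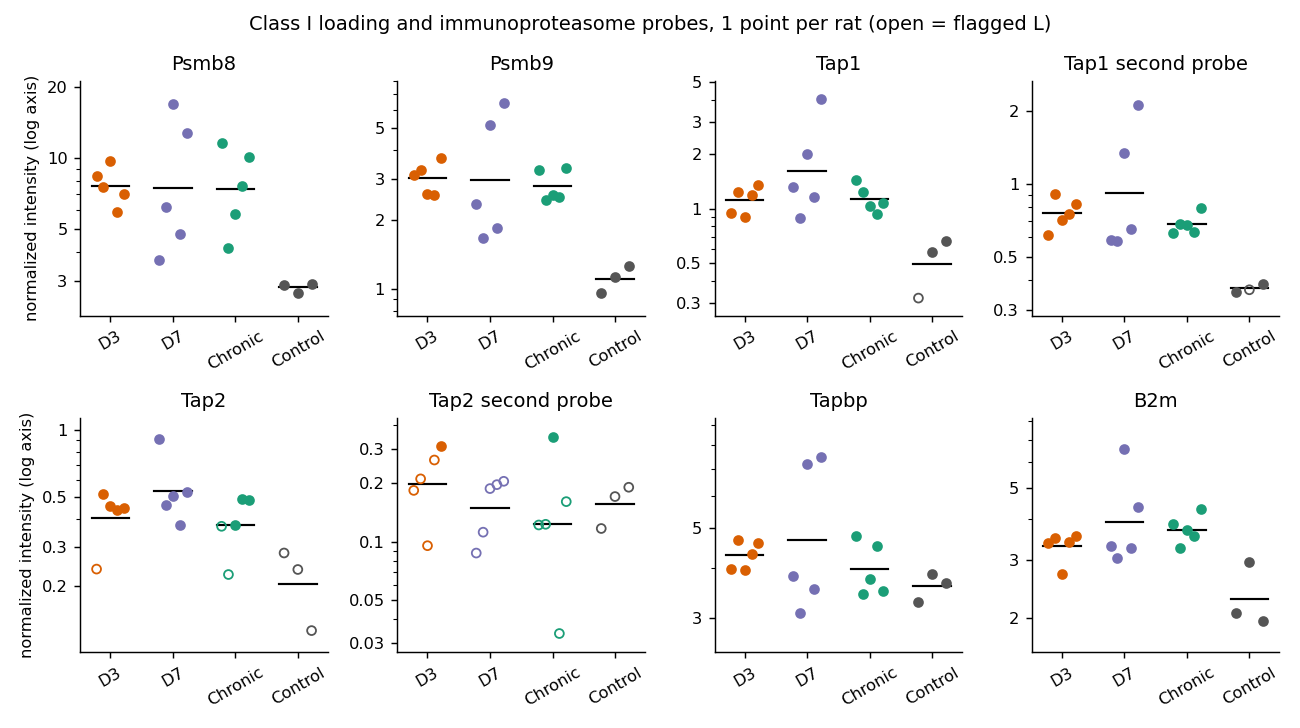
Normalized intensity (log axis) of the 8 probes, 1 point per rat, for D3, D7, Chronic and Control, with a bar at the geometric mean of each group and open points for spots flagged L. Psmb8, Psmb9 and both probes of Tap1 lie above every Control rat in all 15 pilocarpine rats, and the D7 rats spread the most on every probe but the pair for Tap2. The share of all genes that lie wholly above Control was not counted.

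Psmb8 encodes the inducible subunit that takes the place of Psmb5 in the catalytic core. Its intensity was 8.34, 7.55, 9.69, 5.88 and 6.99 at D3, then 3.67, 6.16, 16.9, 4.74 and 12.7 at D7, and 11.5, 4.16, 5.80, 7.59 and 10.1 in Chronic, against 2.90, 2.68 and 2.91 in Control. All 15 pilocarpine rats were above every Control rat, and the D7 rats ran from just above Control to the highest values of the series, 4.61-fold apart. Control holds only 3 rats, and how many of all genes lay wholly above them was not counted, here or for the genes below. The mean was 7.69 ± 1.43 at D3, 8.85 ± 5.73 at D7 and 7.83 ± 3.02 in Chronic (SD, n = 5 each), against 2.83 ± 0.127 in Control (SD, n = 3). The log2 fold change was 1.42 ± 0.38 (SE; limma adjusted p = 0.0120) at D3, 1.40 ± 0.38 (adjusted p = 0.0180) at D7 and 1.38 ± 0.38 (adjusted p = 0.0225) in Chronic. The call at D7 was lost without Control rat 26 (adjusted p = 0.0573) or 36 (0.0672). The call in Chronic was lost without Chronic rat 41 (0.0570) or Control rat 26 (0.0713), 36 (0.0820) or 47 (0.0554).

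Psmb9, the inducible counterpart of Psmb6, also lay above Control in every pilocarpine rat, with less scatter at D3 and in Chronic. Its intensity was 3.13, 3.30, 2.58, 2.55 and 3.69 at D3, then 2.33, 1.66, 5.13, 1.83 and 6.40 at D7, and 3.28, 2.43, 2.56, 2.50 and 3.34 in Chronic, against 0.957, 1.13 and 1.26 in Control. D3 and Chronic rats stayed within 1.45-fold and 1.38-fold of each other, while D7 rats were up to 3.85-fold apart. The log2 fold change was 1.44 ± 0.32 (SE; limma adjusted p = 0.00375) at D3, 1.42 ± 0.32 (adjusted p = 0.00673) at D7 and 1.33 ± 0.32 (adjusted p = 0.0115) in Chronic. Psmb9 had the lowest adjusted p of the 6 genes at D3 and in Chronic. The Chronic call was lost without Control rat 26, at a log2 fold change of 1.23 and an adjusted p of 0.0597.

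Tap1 is the first subunit of the peptide transporter. The probe of higher mean, which stands for the gene, gave 0.944, 1.24, 0.903, 1.19 and 1.35 at D3, then 1.31, 0.883, 2.02, 1.16 and 4.07 at D7, and 1.45, 1.24, 1.03, 0.931 and 1.08 in Chronic, against 0.320, 0.575 and 0.660 in Control. All 15 pilocarpine rats were above the Control rats, of which rat 26, the lowest, was flagged L. The second Tap1 probe gave 0.612, 0.908, 0.708, 0.753 and 0.821 at D3, then 0.588, 0.581, 1.34, 0.648 and 2.12 at D7, and 0.624, 0.682, 0.678, 0.632 and 0.793 in Chronic, against 0.357, 0.365 and 0.387 in Control. The groups did not overlap on this probe either, and the same 2 rats of D7 were the highest on both.

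For the first Tap1 probe the log2 fold change was 1.17 ± 0.35 (SE; limma adjusted p = 0.0207) at D3, 1.71 ± 0.35 (adjusted p = 0.00340) at D7 and 1.19 ± 0.35 (adjusted p = 0.0267) in Chronic. At D7 this was the largest change among the 6 genes. The second Tap1 probe gave 1.03 ± 0.31 (adjusted p = 0.0234) at D3, 1.30 ± 0.31 (adjusted p = 0.00907) at D7 and 0.88 ± 0.31 (adjusted p = 0.0651) in Chronic, so the Chronic call rests on 1 of the 2 probes. The D3 call of Tap1 was lost without Control rat 26 (0.85, adjusted p = 0.144). The Chronic call was lost without Control rat 26 (0.88, adjusted p = 0.167), Control rat 36 (1.30, adjusted p = 0.0617) or Chronic rat 41 (1.11, adjusted p = 0.0618). It was also lost when only spots flagged G were kept (0.88, adjusted p = 0.0926), as was that at D3 (0.85, adjusted p = 0.0857).

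Tap2, the other subunit of the transporter, was near background. Its intensity was 0.239, 0.517, 0.456, 0.438 and 0.447 at D3, then 0.906, 0.464, 0.507, 0.375 and 0.529 at D7, and 0.371, 0.226, 0.377, 0.493 and 0.485 in Chronic, against 0.282, 0.238 and 0.127 in Control. Only D7 lay wholly above Control, and 1 rat of D3 and 1 of Chronic fell within the Control range. All 3 Control spots were flagged L, as were 1 of 5 at D3, none at D7 and 2 of 5 in Chronic. Each Control spot was then set to no less than the dimmest G spot of its array. On that reckoning the mean of Tap2 was 1.43-fold higher at D3, 1.87-fold at D7 and 1.33-fold in Chronic. Spots flagged L in D3 and Chronic kept their values, and the spread between rats is left out. These folds are therefore estimates and not minimums.

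The fitted log2 fold change of Tap2 was 0.99 ± 0.33 (SE; limma adjusted p = 0.0372) at D3, just under the 2-fold limit, 1.38 ± 0.33 (adjusted p = 0.00899) at D7 and 0.88 ± 0.33 (adjusted p = 0.0788) in Chronic. The D7 call was lost without Control rat 47 (1.04, adjusted p = 0.0572). Tap2 was called at D3 without D3 rat 12 (1.18, adjusted p = 0.0153) or Control rat 26 (1.22, adjusted p = 0.0359), and in Chronic without Chronic rat 42 (1.07, adjusted p = 0.0392). The second Tap2 probe had 1 spot flagged G at D3, 1 in Chronic and 0 in D7 or Control, and changed by 0.34 ± 0.53, -0.07 ± 0.53 and -0.29 ± 0.53 over the 3 times with no call. With the median of both probes Tap2 was not called at D7 (0.66, adjusted p = 0.148).

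B2m encodes the light chain shared by all class I molecules. Its intensity was 3.38, 3.52, 2.73, 3.40 and 3.57 at D3, then 3.31, 3.04, 6.55, 3.27 and 4.38 at D7, and 3.86, 3.27, 3.72, 3.55 and 4.29 in Chronic, against 2.07, 2.96 and 1.96 in Control. D7 and Chronic lay wholly above Control, and at D3 rat 13 was below the highest Control rat. The log2 fold change was 0.53 ± 0.20 (SE; limma adjusted p = 0.0602) at D3, 0.78 ± 0.20 (adjusted p = 0.0117) at D7 and 0.70 ± 0.20 (adjusted p = 0.0231) in Chronic. The rises at D7 and in Chronic passed the test at 1.72-fold and 1.63-fold, under the 2-fold limit. Counted with no fold limit, 4 of the 6 genes were higher at D3, 5 at D7 and 4 in Chronic, beside 11.8%, 8.04% and 6.28% of all genes.

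Tapbp encodes tapasin. Its intensity was 3.96, 4.67, 3.95, 4.32 and 4.59 at D3, then 3.81, 3.09, 7.20, 3.54 and 7.49 at D7, and 4.78, 3.45, 3.74, 4.52 and 3.51 in Chronic, against 3.28, 3.86 and 3.67 in Control. The D3 rats were all above Control by a small margin, while at D7 and in Chronic 2 of 5 rats were. The log2 fold change was 0.25 ± 0.23 (SE; limma adjusted p = 0.473) at D3, 0.38 ± 0.23 (adjusted p = 0.264) at D7 and 0.14 ± 0.23 (adjusted p = 0.739) in Chronic.

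**Figure D3:**
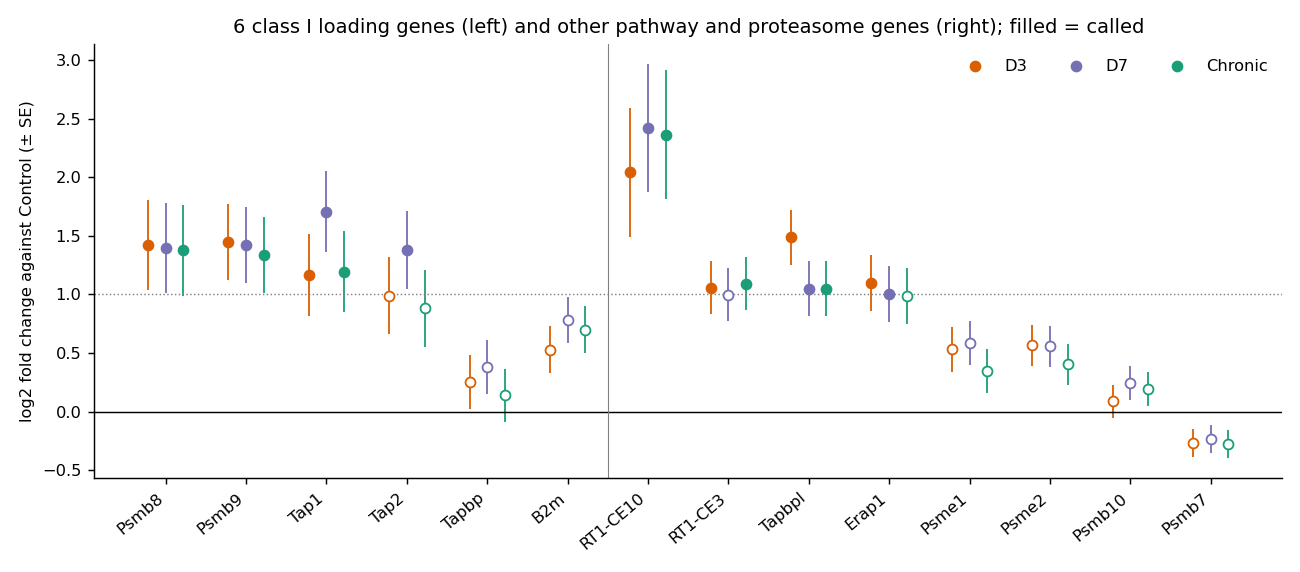
Log2 fold change against Control with its standard error for the 6 genes (left of the line) and for other genes of the class I pathway and the proteasome (right), at D3, D7 and Chronic; filled points were called and the dotted line is 2-fold. Psmb8 and Psmb9 stand between 1.33 and 1.44 at every time, while Tapbp, Psmb10 and Psmb7 stay at or below 0.38.

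The pilocarpine groups were not told apart by any of the 6 genes. Between D7 and D3 the log2 difference ran from -0.02 for Psmb8 to 0.54 ± 0.30 (SE; limma adjusted p = 0.479) for Tap1, and 0 of 6 were called. The sign for Psmb8 and Psmb9 turned under quantile normalization and percentile 75 scaling. Higher calls made up 0.073% of all genes in that comparison and lower calls 0.454%. Between Chronic and D3 it ran from -0.11 for Tapbp to 0.17 for B2m with 0 called, beside 0.122% and 0.997% of all genes called higher and lower. Between Chronic and D7 it ran from -0.51 ± 0.30 (adjusted p = 0.601) for Tap1 to -0.02 for Psmb8 with 0 called, beside 0.0243% and 0.0162%. With these standard errors the Tap1 estimates were not told from 0. Larger differences could also have gone uncalled, since a call needed 2-fold or more and an adjusted p under 0.05.

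Within D7 most of the genes were high or low together from rat to rat. D7 rats 33 and 35 were above the D7 mean for 5 of the 6 genes, all but Tap2, by 0.60 and 0.67 on the log2 scale averaged over the 6. D7 rats 32 and 34 were below it for all 6, with averages of -0.53 and -0.50, and rat 31 averaged -0.24 with Tap2 alone above. In the other groups the same average stayed between -0.15 and 0.14 at D3, between -0.34 and 0.26 in Chronic and between -0.10 and 0.14 in Control. Over the 18 arrays, Pearson's r between 2 genes was 0.34 to 0.90 (median 0.70, 15 pairs), and with the group means removed it was -0.11 to 0.90 (median 0.64). Psmb9 and Tapbp had the highest r with the group means removed, 0.90, although Tapbp passed no test between groups. Tap2 had r of -0.11 to 0.15 with the other genes once group means were removed. The points share the arrays and their scaling, and these values are descriptions.

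**Figure D4:**
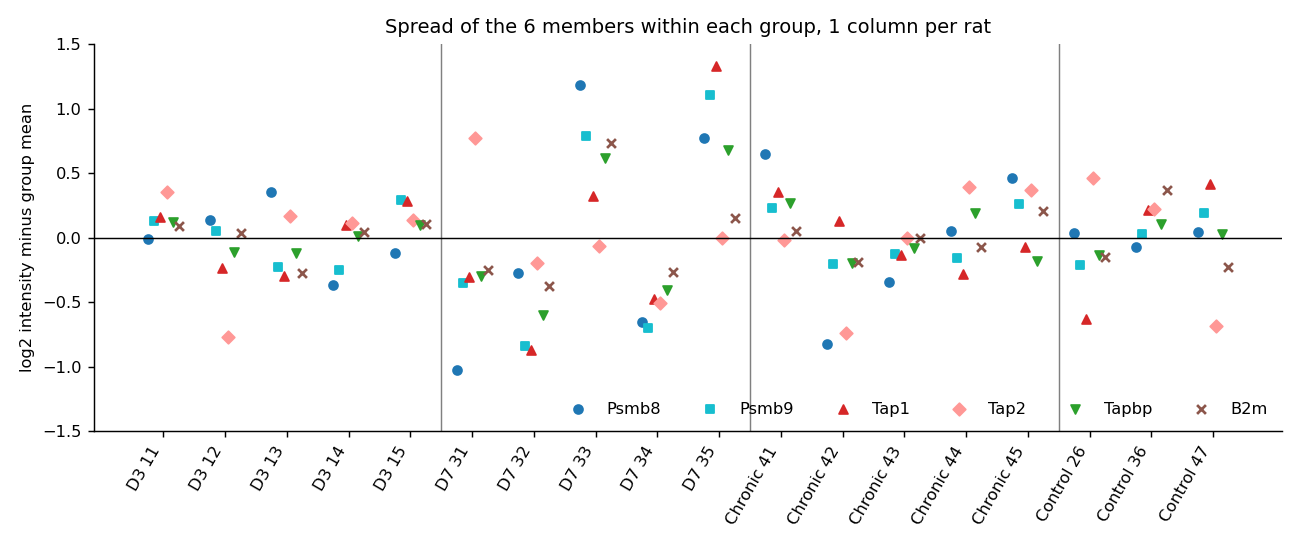
Log2 intensity of the 6 genes in each rat minus the mean of its group, with 1 column per rat. Within D7, rats 33 and 35 lie above the mean for all genes but Tap2, and rats 32 and 34 lie below it for all 6.

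Markers of microglia, the resident immune cells of the brain, were higher than in Control too. The list does not separate microglia from macrophages. Of 8 markers, 6 were called higher at D3, 8 at D7 and 6 in Chronic, beside 5.09%, 3.8% and 2.87% of all genes. Their median log2 fold changes were 1.64, 1.65 and 1.41. Their summed intensity was 208 to 256 at D3, 151 to 441 at D7, and in Chronic 146 to 250, against 70.0 to 82.8 in Control, where Cx3cr1 had all its spots flagged L. Among the D7 rats the sum was 441 in rat 33 and 299 in rat 35, the rats with the highest class I loading genes, and 234 in rat 31, 151 in rat 32 and 197 in rat 34. In Chronic the lowest sum, 146, was in rat 44, where the 6 genes averaged 0.02 from the group mean on the log2 scale. Chronic rat 42, where they averaged -0.34, had a sum of 194. The part of microglia or macrophages in the result was not tested.

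Of 7 measured T cell markers, Cd5 and Cd8b were called higher at each time, beside 5.09%, 3.8% and 2.87% of all genes. Cd8b is a chain of the CD8 co-receptor that binds class I molecules, and all its Control spots were flagged L. With those spots set to no less than the dimmest G spot, Cd8b was 2.29-fold higher at D3. It was 1.65-fold higher at D7 and 2.01-fold in Chronic on the same reckoning. Cd5 also had all its Control spots flagged L. On that reckoning Cd5 was 1.57-fold higher at D3, 2.05-fold at D7 and 1.53-fold in Chronic. Cd2 passed the test at no time. Cd8a, the partner chain, had all its spots flagged L at D7, in Chronic and in Control. Cd3d and Cd3e, chains of the T cell receptor complex, and Lck, its kinase, passed the test at no time, with log2 fold changes between -0.32 and 0.39. The median of the list was 0.91 at D3, -0.03 at D7 and 0.39 in Chronic. The summed intensity of the T cell markers was 3.89 to 5.98 at D3, 3.73 to 4.82 at D7, and in Chronic 3.71 to 5.29, against 3.00 to 3.40 in Control. Their part in the result was not tested.

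Of 3 measured neuronal markers, Syn1 and Stmn2 passed the test as lower at all 3 times, under the 2-fold limit and so without a call. Syn1, a synaptic vesicle protein, was 0.567-fold (limma adjusted p = 0.00277) at D3, 0.554-fold (adjusted p = 0.00371) at D7 and 0.569-fold (adjusted p = 0.00594) in Chronic. Stmn2, a regulator of microtubules, was 0.565-fold (adjusted p = 0.00186), 0.626-fold (adjusted p = 0.0102) and 0.521-fold (adjusted p = 0.00183). Snap25 had all its spots flagged L in Chronic and Control and passed at no time. The summed intensity of the 3 was 46.0 to 55.7 at D3, 38.4 to 64.7 at D7, and in Chronic 37.0 to 57.9, against 88.2 to 93.7 in Control. Of 5 astrocyte markers, Gfap was called higher at every time, with a sum of 222 to 255 at D3, 225 to 256 at D7, and in Chronic 153 to 239, against 175 to 192 in Control. None of the 5 endothelial markers was called. Under the 2-fold limit, Flt1 passed as lower at D3 (-0.63, limma adjusted p = 0.00132), D7 (-0.60, adjusted p = 0.00329) and in Chronic (-0.47, adjusted p = 0.0162). Vwf passed as higher at D3 alone (0.85, adjusted p = 0.00645). Choroid plexus markers differed from rat to rat, with sums of 3.94 to 23.3 at D3, 3.90 to 36.4 at D7, and in Chronic 6.59 to 207, against 12.3 to 244 in Control. Ttr, the transthyretin gene, was called lower at D7 (-4.13 ± 1.34, adjusted p = 0.0451) and stood at -3.33 ± 1.34 (adjusted p = 0.0898) at D3 and 0.45 (adjusted p = 0.860) in Chronic. Within D7 the choroid plexus sum was 36.4 in rat 33 and 24.6 in rat 35, and at most 5.70 in the others. Alas2, the 1 measured red blood cell marker, was called lower at D3 and D7. The part of these cell types in the result was not tested.

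Beyond the 6 genes, 22 of 49 other genes of the class I pathway were measured. Of these, 4 were called higher at D3, then 3 at D7 and 3 again in Chronic, beside 5.09%, 3.8% and 2.87% of all genes. None was called lower, and the medians were 0.47, 0.61 and 0.41 on the log2 scale. With no fold limit, 7 (D3), 8 (D7) and 5 (Chronic) passed as higher, beside 11.8%, 8.04% and 6.28% of all genes. Those that passed as lower were RT1-T24-4 at D3 (-0.54 ± 0.12, limma adjusted p = 0.00403) and D7 (-0.37 ± 0.12, adjusted p = 0.0410), and Mr1, a class I-like molecule, at D3 (-0.48 ± 0.14, adjusted p = 0.0160) and in Chronic (-0.45 ± 0.14, adjusted p = 0.0321). Tapbpl, a tapasin-related peptide editor, was 1.61 to 2.14 at D3 (median 1.79), 0.879 to 2.05 at D7 (median 1.27) and 1.16 to 1.77 in Chronic (median 1.41), against 0.486, 0.671 and 0.889 in Control. It rose by 1.49 ± 0.23 (SE; limma adjusted p = 0.000246) at D3, 1.05 ± 0.23 (adjusted p = 0.00587) at D7 and 1.05 ± 0.23 (adjusted p = 0.00700) in Chronic, whereas tapasin itself passed no test. Erap1, which trims peptides inside the endoplasmic reticulum, rose by 1.10 ± 0.24 (adjusted p = 0.00297) at D3 and 1.01 ± 0.24 (adjusted p = 0.00823) at D7, and was just under the 2-fold limit in Chronic (0.99 ± 0.24, adjusted p = 0.0109).

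Among the class I heavy chains of the rat RT1 complex, 9 of 36 listed genes were measured. Of the 9, 2 were called higher at D3, 1 at D7 and 2 in Chronic, beside 5.09%, 3.8% and 2.87% of all genes. RT1-CE3 was 4.29 to 5.14 at D3, 3.21 to 7.24 at D7, and in Chronic 4.03 to 7.53, against 2.26, 2.30 and 2.39 in Control, so no pilocarpine rat overlapped Control. It rose by 1.06 ± 0.23 (SE; limma adjusted p = 0.00269) at D3 and by 1.09 ± 0.23 (adjusted p = 0.00455) in Chronic, and was just under 2-fold at D7 (0.996 ± 0.23, adjusted p = 0.00647). RT1-CE10 was called at all 3 times but was dim, with all Control spots and most of those at D3 and D7 flagged L. With its Control spots set to no less than the dimmest G spot, it was 1.22-fold higher at D7 and 1.17-fold in Chronic. At D3 no rise was left on that reckoning. RT1 genes are near-identical copies, so which of them a probe reads is uncertain. The count for the class I pathway at D7 was 1 without D7 rat 33 or 35 and 5 without D7 rat 34 or Control rat 47.

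The third inducible subunit, Psmb10, was not called at any time. Its intensity was 10.98 to 15.1 at D3 (median 12.8), 11.4 to 18.4 at D7 (median 13.2) and 13.1 to 14.7 in Chronic (median 13.6), against 11.2, 12.1 and 12.96 in Control, and the log2 fold change was 0.09 ± 0.14, 0.24 ± 0.14 and 0.19 ± 0.14 with no call. Psme1 and Psme2, the subunits of the PA28 activator that caps the immunoproteasome, changed by less than 2-fold. Psme1 was 20.8 to 24.8 at D3, 16.3 to 36.3 at D7, and in Chronic 18.4 to 21.3, against 14.9 to 16.4 in Control. Psme2 was 12.6 to 14.5 at D3, 10.3 to 19.2 at D7, and in Chronic 10.7 to 13.7, against 8.75 to 9.98 in Control. Psme2 passed the test at D3 (0.56 ± 0.17, limma adjusted p = 0.0246) and D7 (0.56 ± 0.17, adjusted p = 0.0320), and Psme1 at D7 (0.58 ± 0.19, adjusted p = 0.0386), all under the 2-fold limit.

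Of the other proteasome genes, 39 of 42 were measured: 11 of the 20S core, 23 of the regulatory particles and 5 of assembly. None was called at any time, and their median log2 fold change was -0.10 at D3, -0.21 at D7 and -0.18 in Chronic, beside -0.10, -0.12 and -0.12 for all genes. With no fold limit, limma put 4 lower (D3), 8 lower (D7) and 5 lower (Chronic), with 1 higher each time, beside 16.5%, 15.5% and 12.7% of all genes lower. The gene that was higher was Psme4, the PA200 activator, at 0.99 ± 0.15 (adjusted p = 0.000143) at D3, 0.80 ± 0.15 (adjusted p = 0.00161) at D7 and 0.68 ± 0.15 (adjusted p = 0.00571) in Chronic. Psme4 was called at D3 without D3 rat 11 or 13 or Control rat 36, which makes the count 1. Psmb7, whose place Psmb10 takes in the immunoproteasome, was 31.4 to 41.6 at D3, 34.1 to 43.05 at D7, and in Chronic 31.3 to 43.1, against 43.1 to 48.8 in Control, with log2 fold changes of -0.27, -0.23 and -0.28 and no call. Psmb5 and Psmb6, the counterparts of Psmb8 and Psmb9, were not analysed here, since no probe was assigned to them.

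**Figure D5:**
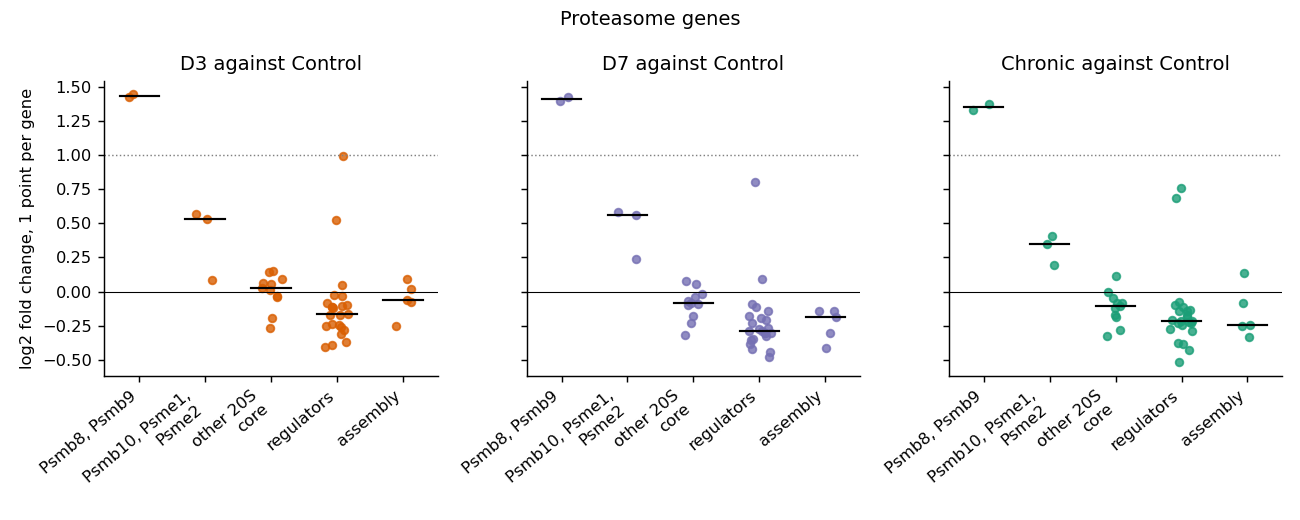
Log2 fold change against Control of proteasome genes, 1 point per gene with a bar at the median of each class, for D3, D7 and Chronic. Psmb8 and Psmb9 lie above the 2-fold line (dotted) at all 3 times, and Psme4 is the highest of the other genes at D3 and D7, at 0.99 and 0.80.

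Among 17 measured regulators of these genes, 3 were called higher at D3, 3 at D7 and 0 in Chronic. Of all genes, 5.09%, 3.8% and 2.87% were. No regulator was called lower. Irf1, a factor that binds IRF elements, was 2.25 to 3.57 at D3 (median 2.92), 1.94 to 5.69 at D7 (median 2.28) and 1.79 to 3.52 in Chronic (median 2.75), against 1.30, 1.33 and 1.56 in Control, with no overlap. It rose by 1.01 ± 0.27 (SE; limma adjusted p = 0.0127) at D3 and 1.02 ± 0.27 (adjusted p = 0.0161) at D7, and was under 2-fold in Chronic (0.96 ± 0.27, adjusted p = 0.0246). Ifngr1, a chain of the interferon-gamma receptor, rose by 1.03 ± 0.12 (adjusted p = 2.13e-05) at D3 and 1.22 ± 0.12 (adjusted p = 9.77e-06) at D7, and by 0.75 ± 0.12 (adjusted p = 0.000975), under 2-fold, in Chronic. The difference between the times was called for neither gene.

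Ciita, the master regulator of class II genes, was called at D3 alone, and its difference between the times was not called. All its Control spots were flagged L. With them set to no less than the dimmest G spot, Ciita was 2.60-fold higher at D3. Ifnb1, near background, was called at D7, 1.32-fold higher on the same reckoning. The probe of interferon gamma itself, Ifng, had no spot flagged G in any group. Nlrc5, the class I transactivator, was not analysed here.

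Of the class II genes, whose products present peptides from outside the cell, 9 were measured, with a median log2 fold change of 1.49 at D3, 1.38 at D7 and 1.27 in Chronic. Of these, 4 were called higher at D3 (Cd74, RT1-Ba, RT1-DMb and RT1-Da), the same with Ctss at D7, and those without Ctss in Chronic. The share of all genes called higher was 5.09% at D3, 3.8% at D7 and 2.87% in Chronic. RT1-DMa passed under the 2-fold limit at D3 and D7, as did Ctss at D3 and in Chronic. RT1-Db1, RT1-Bb and RT1-DOa passed at no time (adjusted p of 0.287 to 0.690). Cd74, the invariant chain, rose by 3.05 ± 0.48 (SE; limma adjusted p = 0.000240) at D3, 2.38 ± 0.48 (adjusted p = 0.00314) at D7 and 3.59 ± 0.48 (adjusted p = 0.000257) in Chronic. RT1-DMb rose by 1.80 ± 0.26 (adjusted p = 0.000109) at D3, 1.79 ± 0.26 (adjusted p = 0.000241) at D7 and 1.27 ± 0.26 (adjusted p = 0.00393) in Chronic. The summed intensity of the class II genes was 83.3 to 141 at D3, 68.5 to 162 at D7, and in Chronic 79.7 to 138, against 32.4 to 41.9 in Control, and within D7 it was highest in rat 33.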

How the data were processed

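Per the labels and the study's methods, hippocampal RNA was hybridized to 1-colour CodeLink arrays, 1 per sample. The methods describe 5 rats per group, with a saline group for each time; the 18 arrays analysed here hold 1 saline array per time. The authors corrected each spot for local background and divided by 1 constant per array, and deposited these values as normalized intensity on a linear scale. Of 35129 spots, 33849 are gene probes; the platform annotation named 16740 and a RefSeq accession 205 more, and 165 naming several genes were not assigned. Of all gene spots, the 0.699% with a flag other than G or L were set to missing. Values were raised to percentile 1 of each array's positive values, log2-transformed and tested over 33800 probes as 1 model of 4 groups with limma 3.58.1 in R 4.3.3 (trended prior, Benjamini-Hochberg adjustment over all probes). The script was tested on simulated data. Calls needed an adjusted p under 0.05 with 2-fold or more. The probe of highest mean stands for its gene. Genes named beside the 6 were those called in each list (at most 6, by size), with Psmb10 and the constitutive subunits always, and those most like the mean profile. Psme1, Psme2, Psme4, Ifng, Cd8a, Fibcd1, Calb1, Prox1, Neurod2, Zbtb20, Flt1, Vwf, Alas2, Syn1, Stmn2, Snap25, Ttr, Cd3d, Cd3e, Lck, Mr1, RT1-T24-4, RT1-DMa, RT1-Db1, RT1-Bb and RT1-DOa were named after their values were seen. A further regulator is not reported here. The genes and lists were chosen with earlier results of these data known. Control pools 3 saline arrays of different times. Scaling, floor, filter, flag, control, probe and test alternatives and each array left out in turn were tried. The number of arrays limits the precision.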

Additional observations from a re-analysis of the deposited data

Results flagged for a closer look

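Among 24 sets of 5 rats (8 probes in D3, D7 and Chronic), 2 had a rat far from the others on the log2 scale, where chance gives about 1 in 20. Tap2 at D3 was 0.239 in rat 12, below the other 4, and this gap was 0.786 of the range of the group. B2m at D3 was 2.73 in rat 13, with a gap of 0.799 of the range. No difference between the pilocarpine groups was called for any of the 6 genes.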

How the results depend on the processing

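Of 1056 values of the 6 genes under another setting, 984 kept their direction and side of the threshold, 31 lost the call, 7 gained it and 34 took the opposite sign. None of the 537 values against Control turned. The 34 were among 519 differences between pilocarpine groups, none of them called. Many of the 1056 values could not turn. Leaving out a rat of a group outside the comparison, dropping the fold limit or changing only the test keeps the log2 fold change. These counts therefore overstate how far the directions were put to the test. For D7 against D3, quantile normalization gave 0.016 for Psmb8 and 0.036 for Psmb9, and percentile 75 scaling 0.029 and 0.031. For Chronic against D3, percentile 75 scaling gave 0.0072 for Psmb8. With the median of the probes, Tap1 was -0.060 (Chronic against D3) and Tap2 -0.0089 (D7 against D3). Leaving out 1 rat, D7 against D3 ran from -0.32 to 0.23 for Psmb8, -0.30 to 0.19 for Psmb9 and -0.043 to 0.28 for Tapbp. Likewise, Chronic against D3 ran from -0.21 to 0.16 for Psmb8, -0.060 to 0.10 for Tap1 and -0.30 to 0.076 for Tap2, and Chronic against D7 from -0.28 to 0.27 for Psmb8, -0.30 to 0.19 for Psmb9 and -0.17 to 0.10 for B2m. With the Control array of each group's own time alone, 0 of the 6 genes were called at D3, D7 or Chronic; other class I genes called were 2 at D3 and 0 in Chronic, and other proteasome genes 1 at D3. With the methods' t-test after adjustment, 0 of the 6 were called at D7 and 1 in Chronic, and other class I genes were 2 (D3), 0 (D7) and 0 (Chronic). With no fold limit, counted in either direction, other class I genes were 9 (D3; 7 higher and 2 lower), 9 (D7; 8 and 1) and 6 (Chronic; 5 and 1), and other proteasome genes 5, 9 and 6, 1 of them higher each time. With quantile normalization, other class I genes at D7 were 5 and other proteasome genes at D3 were 1, a count that scaling at percentile 75 gave too. With log2(value + 0.1), other class I genes at D7 were 1. Leaving out 1 rat, the 6 genes gave 3 to 4 calls (D3), 3 to 4 (D7) and 0 to 4 (Chronic) (0 without Control rat 26, 1 without Control rat 36 or Chronic rat 41), other class I genes 3 to 4, 1 to 5 and 2 to 4, and other proteasome genes 0 to 1 at D3 and 0 at the other times. The cause was not tested. The median of all genes, -0.10 to -0.12 against Control, was -0.03 to -0.0047 after quantile normalization and -0.05 to -0.01 after scaling at percentile 75. No paired analysis was possible because no replicate number recurs from group to group. A block for slide or scan was not run, since no batch was given to fit. Spots flagged L limit Tap2 and RT1-CE10.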

Other observations

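By a fixed measure of likeness, Pearson's r over the 18 arrays with the mean standardized profile of the 6 genes, the 5 most alike of 11179 genes were Sp110 (0.95), Parp14 (0.95), Abcg3l4 (0.95), Ly86 (0.94) and Arhgap9 (0.94), where the median gene had -0.16. Sp110, an interferon-induced nuclear body protein, rose by 1.60 ± 0.37 (SE; limma adjusted p = 0.00447) at D3, 1.93 ± 0.37 (adjusted p = 0.00217) at D7 and 1.51 ± 0.37 (adjusted p = 0.0116) in Chronic. Parp14, an ADP-ribosyltransferase, rose by 1.38 ± 0.41 (adjusted p = 0.0199), 1.65 ± 0.41 (adjusted p = 0.0105) and 1.38 ± 0.41 (adjusted p = 0.0287). Ly86, which partners a Toll-like receptor homologue on immune cells, rose by 2.06, 2.25 and 1.92, and Arhgap9 by 1.45, 1.65 and 1.36. The profile of the 6 genes already holds their rise over Control, so genes picked for likeness to it rise too. The changes and adjusted p-values of these genes follow from that choice and are no separate evidence.

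With group means removed, so that only the spread between rats of 1 group counted, the 5 most alike were Psme2 (0.92), Chaf1b (0.91), Abcg3l4 (0.90), Parp14 (0.90) and Pik3ap1 (0.90), where the median gene had -0.06. Psme2, a subunit of the PA28 activator, thus had the highest r with the mean profile of the 6 genes between rats of a group. Tap2 had r of only -0.11 to 0.15 with the other members here. For all members but Tap2 the D7 rats spread the most, so they weigh most in these values. These values have no test, and the arrays share their scaling.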
